A study of Homo sapiens with 12 samples.

Results

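The genes of heat production and creatine metabolism were followed in human adipocytes, namely UCP1, UCP2, DIO2, PPARGC1A, PPARGC1B, PRDM16, CKB, CKMT2, GATM and SLC6A8. They were chosen by gene symbol and make up 10 of the 28901 named genes in the table. RNA-seq was done on 12 libraries of ASC52telo hTERT, adipose-derived human stromal cells made immortal by telomerase, taken at day 14 of culture. Every cell carried the hTERT transgene and a lentiviral shRNA vector with the fluorescent marker ZsGreen, on which the transduced cells had been sorted. In 6 libraries the shRNA was a scramble sequence (scramble control) and in 6 it was directed at the long intergenic RNA linc-ADAIN (linc-ADAIN KD). In each, 3 libraries had no LPS and 3 had 4 h of LPS at 100 ng/mL on day 14. LPS is a bacterial cell wall component that activates Toll-like receptor 4. All 4 groups had spent 7 days in differentiation medium with insulin (1.7 µM), dexamethasone (1 µM), isobutylmethylxanthine (500 µM) and rosiglitazone (2 µM), and then 7 days in maintenance medium with insulin and dexamethasone but neither of the other 2 agents. The model is limited to 1 cell line, and how far the shRNA lowered linc-ADAIN was not analysed here. The study describes the RNA-seq as 1 experiment in triplicate, so p-values measure the spread between these libraries, which may be technical.

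Brown and beige adipocytes make heat by letting mitochondria burn fuel without making ATP. UCP1 does this by carrying protons back across the inner mitochondrial membrane, and its gene is switched on downstream of adrenergic signals with the help of the coactivator PGC-1α (PPARGC1A), the transcription regulator PRDM16 and thyroid hormone, which the deiodinase DIO2 converts to its active form. A second route turns over ATP in a futile cycle in which creatine is phosphorylated by creatine kinases (CKB, CKMT2) and phosphocreatine is hydrolysed again. GATM makes the creatine precursor and SLC6A8 imports creatine into the cell.

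Counts on named genes ranged from 28.4 to 53.8 M (units of 1e6) per library, and 3 counts corresponded to 0.0557 to 0.105 counts per 1e6 counts (CPM). CPM values here were scaled by TMM over all 12 libraries. Libraries of 1 group correlated at 0.99 to 0.996. The cultures held adipocyte transcripts in every group, and the 10 adipocyte markers summed to 3200 to 4430 CPM in scramble control libraries, 3700 to 4290 CPM in scramble control with LPS, 642 to 1880 CPM in linc-ADAIN KD and 519 to 1210 CPM in linc-ADAIN KD with LPS. None of the 10 was at 0 in every library of a group, but LPL had only 0 to 82 counts per library and LEP 0 to 21. FABP4 (1980 ± 258 CPM, SD, n = 3) and ADIPOQ (919 ± 208 CPM) made up most of the sum in scramble control without LPS. In bulk RNA, fewer adipocytes and less of the marker transcripts per adipocyte cannot be told apart. The study itself reported the opposite direction in KD at day 14. Its qPCR and western blots had more PPARγ, perilipin 1, FABP4 and adiponectin, and its KD cells stored more lipid. The reason for this difference was not tested. Muscle markers summed to 0.0511 to 1.27 CPM, with MYOD1 and CKM at 0 in every library. Without LPS, neural markers summed to 99.7 to 113 CPM in scramble control and 106 to 133 CPM in KD, macrophage markers to 58.3 to 61.9 and 89.7 to 120 CPM, endothelial markers to 23.6 to 27.1 and 11.8 to 12.3 CPM, and stromal markers to 6550 to 6720 and 5350 to 5610 CPM. With LPS, the same sums in scramble control and KD were 89.3 to 99.7 and 93 to 113, 61.3 to 72.4 and 82.1 to 111, 15.3 to 17 and 8.45 to 13.2, and 6610 to 6760 and 5470 to 5720 CPM. Of the macrophage markers, CD163 was at 4.33 ± 1.12 CPM (SD, n = 3) in scramble control and 68.6 ± 13.7 CPM in KD without LPS, while CD68 was at 53.6 ± 2.76 and 31.1 ± 2.34 CPM and the pan-leukocyte gene PTPRC at 0.217 ± 0.00954 and 0.0762 ± 0.0678 CPM. The stromal sums were mostly VIM, which without LPS averaged 3600 (scramble control) against 3210 (KD) CPM. They hid opposite changes. Of the 8 stromal markers, edgeR called 2 higher and 3 lower in KD without LPS, and 2 higher and 4 lower with LPS. Without LPS, THY1 was lower (log2 fold change -2.37 ± 0.11, adjusted p = 8.2e-08) and DPP4 higher (2.07 ± 0.11, adjusted p = 1.5e-07). LPS raised all 6 LPS-responsive genes tested in both scramble control and KD.

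Of these genes, 2 passed the test in at least 1 comparison. The creatine kinase gene CKB was lower in linc-ADAIN KD without LPS, and PPARGC1B, which encodes the coactivator PGC-1β, fell with LPS, further in KD than in scramble control. UCP1, the defining gene of brown fat, had counts in only 2 of the 12 libraries. In each comparison 9 of the 10 genes were tested, UCP1 having fewer than 10 counts in all, and 1 of the 9, lower each time, had an adjusted p under 0.05 by edgeR's quasi-likelihood test. Over all genes, 27.2% were called in linc-ADAIN KD without LPS, 26.9% in KD with LPS, 14.3% with LPS in scramble control, 11.3% with LPS in KD and 1.28% in the interaction of KD with LPS. Those called as lower were 15.1%, 14.2%, 8.38%, 6.03% and 0.332%, in the same order. Those called as higher numbered 1965 of 16217, 2026 of 15981, 940 of 15920, 860 of 16169 and 162 of 17173 genes. Counts from the other gene lists below are to be read beside these values. The member share of 1 in 9 was below the share of all genes in both KD comparisons, near it in both LPS comparisons and above it in the interaction. Each member share rests on 1 gene, and the genes were chosen with earlier results of these data known. The shares are therefore a description and not a test. The median log2 fold change of the 9 genes was -0.06 in KD without LPS, -1.03 in KD with LPS, -0.22 with LPS in scramble control and 0.14 with LPS in KD, where the median of all genes lay between 0.01 and 0.03 in each. Because the counts behind most of these genes were low (6 of the 10 averaged 20 counts or more in a library, and 3 averaged 100 or more), a difference in the remainder would have to be large to be detectable at this depth.

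**Figure D1:**
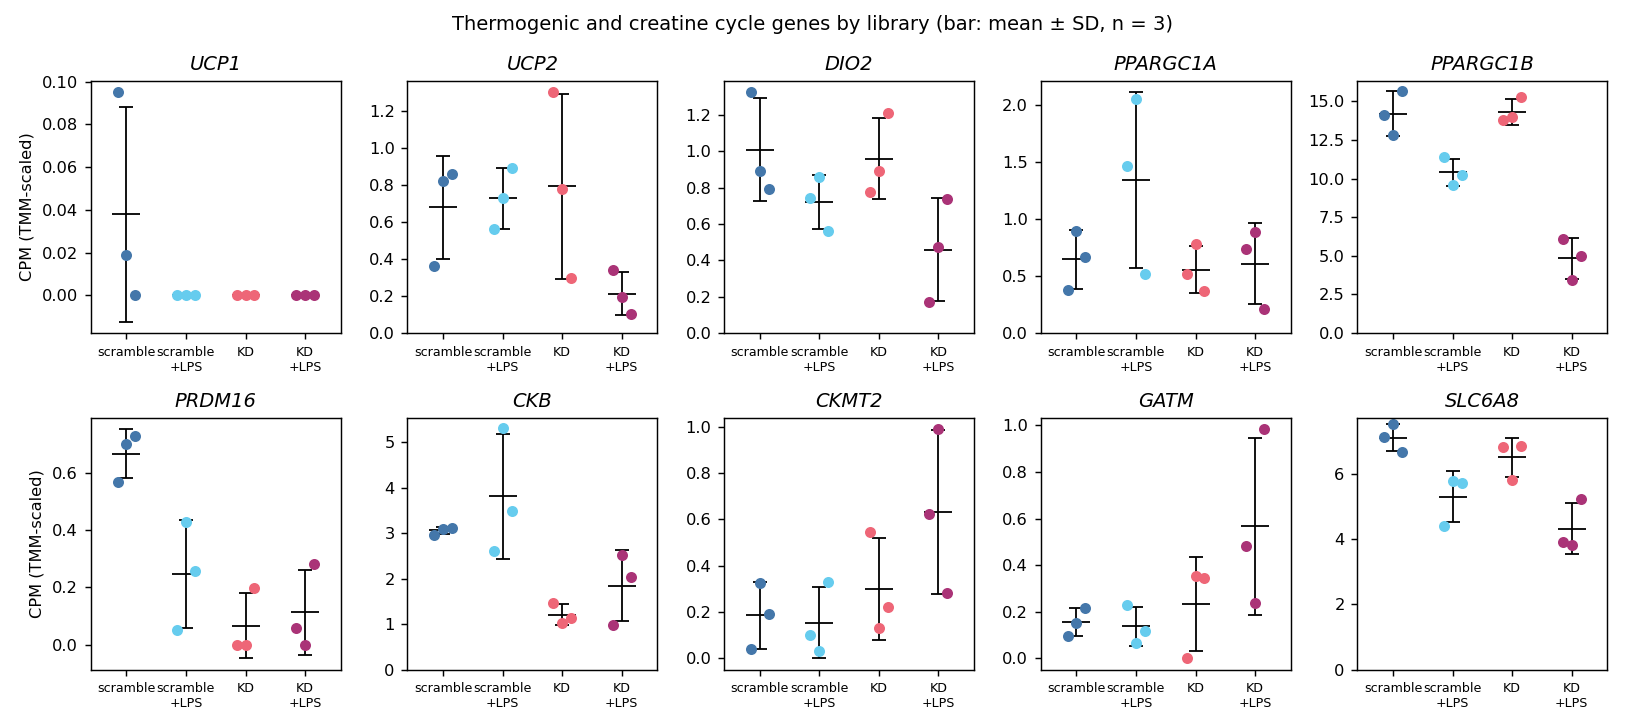
Level of each of the 10 genes in CPM by library, in scramble control and linc-ADAIN KD without and with LPS, with bars for mean ± SD (n = 3). The 3 KD libraries with LPS sit at 3.44 to 6.11 CPM for PPARGC1B, below all other libraries, and the 3 KD libraries without LPS sit at 1.02 to 1.47 CPM for CKB.

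Levels of different genes were compared as CPM per kb of canonical transcript, which assumes that the canonical transcript is the one expressed. On this scale CKB was the most abundant of the set in scramble control at 2.15 ± 0.0596 (SD, n = 3). SLC6A8 followed at 1.81 ± 0.106 and PPARGC1B at 1.34 ± 0.136, and the ranges of these 3 genes did not overlap. These ranges hold the spread between libraries and not the uncertainty of length. Without division by length the order was reversed, at 14.2 CPM for PPARGC1B, 7.1 for SLC6A8 and 3.06 for CKB. UCP2 was lower at 0.413 ± 0.168, with a range that overlapped that of DIO2 at 0.167 ± 0.0472. From UCP2 down, no neighbours in the order were separate, through CKMT2 (0.125), PPARGC1A (0.103), PRDM16 (0.0768), GATM (0.0656) and UCP1 (0.0234). The order changed in KD, where SLC6A8 (1.65) and PPARGC1B (1.36) were ahead of CKB (0.851), which overlapped UCP2 (0.481). In KD with LPS, CKB (1.3) overlapped SLC6A8 (1.1), and PPARGC1B (0.458) overlapped CKMT2 (0.428).

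**Figure D2:**
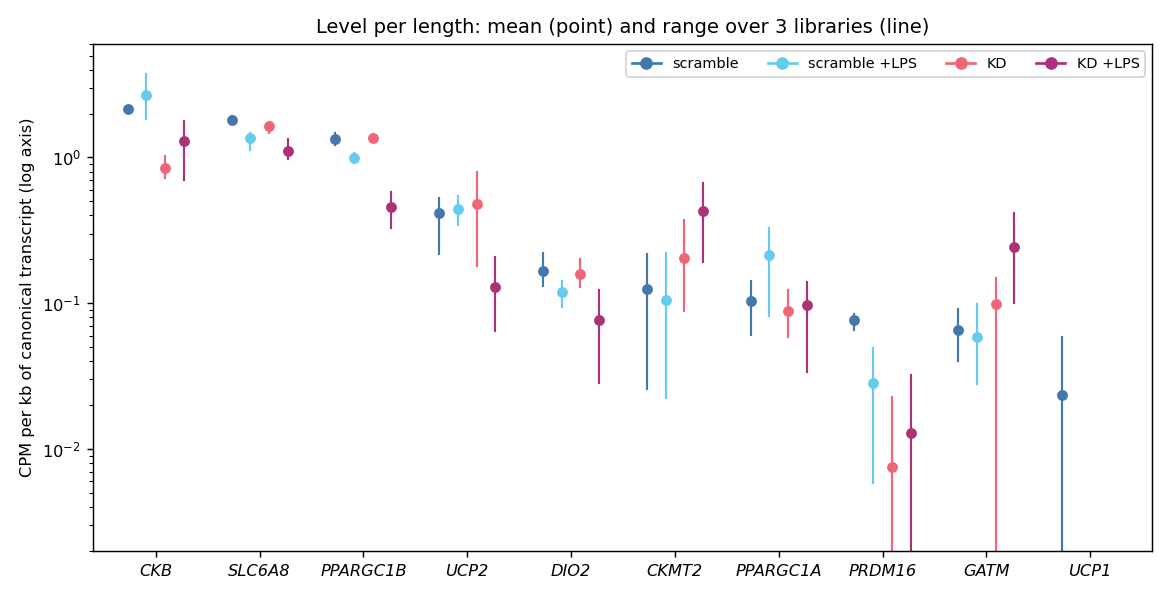
Mean level of each gene in CPM per kb of canonical transcript (log axis), with the range over 3 libraries as a line, in the 4 groups. CKB, SLC6A8 and PPARGC1B are the highest in scramble control, and UCP1 is shown only where it was above 0.

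UCP1 (chr4:140559431-140568961, minus strand, GRCh38), the uncoupling protein of brown fat, had 5, 1 and 0 counts in the scramble control libraries and 0 in the other 9. No fold is given. UCP2 (chr11:73974672-73982843, minus strand), a related mitochondrial carrier that does not generate heat in the way UCP1 does, had 0.361, 0.818 and 0.859 CPM in scramble control, 0.562, 0.727 and 0.891 CPM with LPS, 1.3, 0.78 and 0.296 CPM in KD, and 0.339, 0.194 and 0.105 CPM in KD with LPS. All KD libraries with LPS lay below all scramble control libraries with LPS. The fitted log2 fold change of KD with LPS was -1.75 ± 0.85 (SE), with an adjusted p of 0.16 by edgeR, and that of LPS in KD was -1.87 ± 0.92, with an adjusted p of 0.25.

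DIO2 (chr14:80197526-80387757, minus strand), the deiodinase that makes active thyroid hormone inside the cell, had 1.33, 0.894 and 0.795 CPM in scramble control and 0.778, 0.891 and 1.21 CPM in KD, which overlapped. With LPS it had 0.741, 0.859 and 0.562 CPM in scramble control and 0.17, 0.473 and 0.738 CPM in KD. The LPS-treated KD libraries all lay below the untreated ones, but the log2 difference of -1.06 ± 0.72 had an adjusted p of 0.42 by edgeR. An antisense gene, DIO2-AS1, overlaps DIO2, and whether kallisto was run with a strand setting is not given in the sources used here, so the DIO2 counts are uncertain to that extent. Of 8 other thyroid hormone genes tested, 1 rose and 4 fell in KD without LPS, where 27.2% of all genes were called. THRB, a thyroid hormone receptor, was higher by a log2 fold change of 3.05 ± 0.29 with an adjusted p of 9.5e-06, and THRSP, a lipogenic gene responsive to thyroid hormone, was lower by a log2 change of -2.28 ± 0.59 with an adjusted p of 0.013. In KD with LPS 1 rose and 5 fell, and with LPS in KD 1 fell. With LPS in scramble control none was called at an adjusted p under 0.05 by edgeR, against 2 at an unadjusted p under 0.05 and 2 by DESeq2.

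PPARGC1A (chr4:23755041-23904089, minus strand), the coactivator PGC-1α that drives mitochondrial and thermogenic programmes, had 0.38, 0.894 and 0.666 CPM in scramble control and 1.46, 2.05 and 0.516 CPM after LPS. In KD it had 0.519, 0.78 and 0.37 CPM, and 0.736, 0.882 and 0.211 CPM after LPS. The groups overlapped in every comparison. Log2 fold changes ranged from -1.11 ± 0.67 in KD with LPS to 1.05 ± 0.56 for LPS in scramble control, and the adjusted p by edgeR was 0.26 in both.

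PPARGC1B, its close relative PGC-1β, lies on chr5:149730298-149855022 (plus strand, 12 exons of the canonical transcript). The 250 bases before its GENCODE start are shown because the gene was the one that moved with LPS in both arms. They lie on the plus strand of GRCh38 at chr5:149730048-149730297 and are 78.0% G or C with 29 CpG. The capitals mark 2 copies of CCGCCC, the Sp1 box GGGCGG read on the other strand, at positions -121 and -76 counted from the start. The RefSeq start of PPARGC1B lies inside the gene. The window before that start (chr5:149771690-149771939) is not shown, is 48.0% G or C with 3 CpG and holds none of the motifs searched.
PPARGC1B: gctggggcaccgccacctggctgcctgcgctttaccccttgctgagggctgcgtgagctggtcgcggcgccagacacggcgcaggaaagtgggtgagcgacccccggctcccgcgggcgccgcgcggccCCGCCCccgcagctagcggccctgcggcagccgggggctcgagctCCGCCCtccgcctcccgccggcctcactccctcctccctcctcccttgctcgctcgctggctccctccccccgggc
The Sp1 box was in 42.6% of 35116 promoter windows of the same length, searched on both strands. None of the cyclic AMP response element TGACGTCA (1.65% of windows), its core TGACG (21.2%), the estrogen-related receptor element TCAAGGTCA (0.319%), the nuclear receptor core AGGTCA within it (12.1%), the E-box CACGTG (6.34%), the TATA box TATAAA (10.7%) or the NF-kB site (9.96%) was in this window, which says only that these letters are not there.

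PPARGC1B had 14.1, 12.8 and 15.7 CPM in scramble control and 11.4, 9.61 and 10.2 CPM after LPS. In KD it had 13.8, 14 and 15.3 CPM, and 6.11, 3.44 and 4.96 CPM after LPS. The libraries with LPS lay below those without in both arms, and the 3 KD libraries with LPS lay below all the others. KD without LPS differed by less than the spread between libraries, at a log2 fold change of 0.02 ± 0.12 with an adjusted p of 0.93 by edgeR. With LPS, KD was lower by a log2 change of -1.11 ± 0.22, a 2.16-fold difference with an adjusted p of 0.0018. LPS lowered the gene 1.35-fold in scramble control (log2 fold change -0.43 ± 0.13, adjusted p = 0.049) and 2.97-fold in KD (log2 fold change -1.57 ± 0.21, adjusted p = 0.00012). The interaction of KD with LPS was -1.13 ± 0.25 on the log2 scale with an adjusted p of 0.031, and in it PPARGC1B was 1 of 219 genes of 17173 called. The call for LPS in scramble control was close to the threshold, and with 1 library left out at a time it was lost in 5 of 6 cases (adjusted p 0.042 to 0.15) and kept only without scramble control LPS library 1. The interaction was lost in 8 of 12 cases, at log2 values of -1.36 to -0.92 and adjusted p of 0.0099 to 0.11, and was kept without scramble control library 3, scramble control LPS library 2, KD library 2 or KD LPS library 1. The counts behind these values were 141 to 216 per KD library with LPS and 291 to 752 elsewhere. The summed adipocyte markers were lower in KD than in scramble control, as given above, and their part in the KD results for PPARGC1B was not tested.

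**Figure D3:**
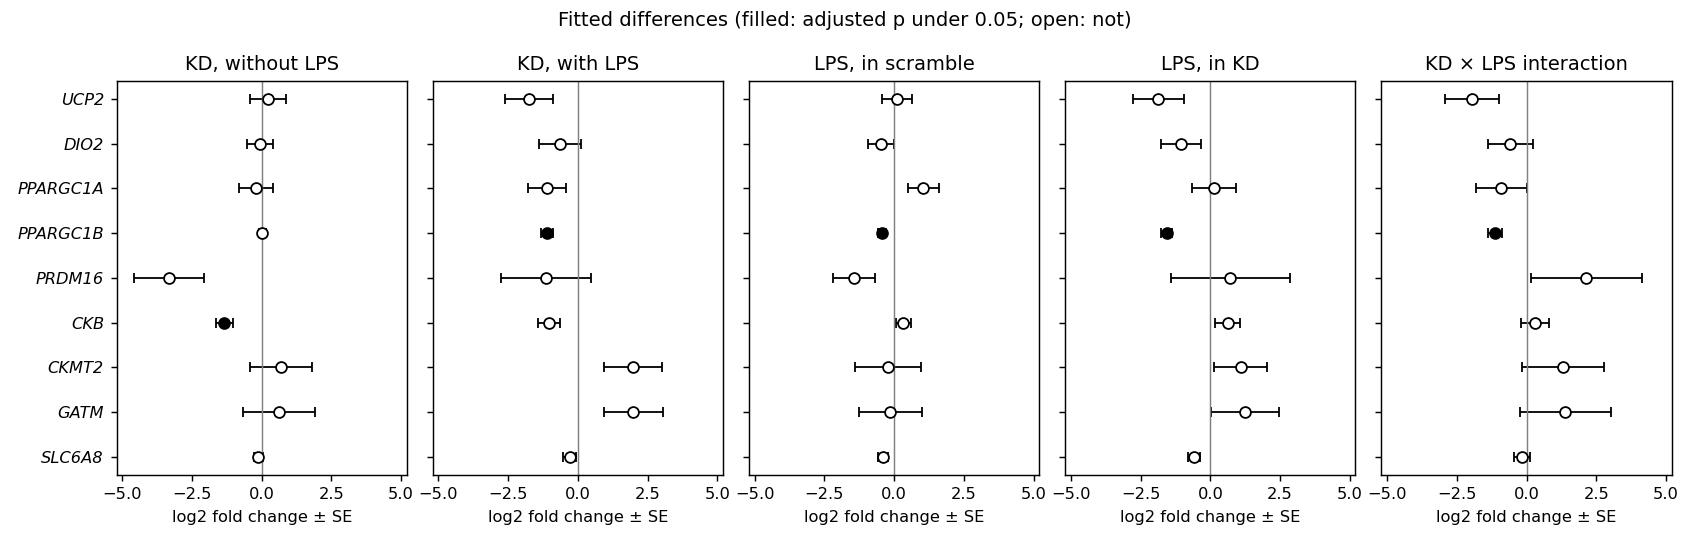
Fitted log2 fold change ± SE of 9 genes in the 4 comparisons of groups and in the interaction of KD with LPS. Filled points have an adjusted p under 0.05 by edgeR; they are CKB in KD without LPS (-1.34) and PPARGC1B in the other 4 panels (-1.11, -0.43, -1.57 and -1.13).

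Among 9 partners and targets of the PGC-1 family tested with LPS in KD, 3 fell and none rose. Of all genes tested there, 11.3% were called and 6.03% were called lower. They were PPARA (log2 fold change -1.34 ± 0.19, adjusted p = 0.00023), the fatty acid receptor, ESRRA (-0.61 ± 0.18, adjusted p = 0.04), the estrogen-related receptor with which PGC-1 proteins act, and PPRC1 (-0.40 ± 0.09, adjusted p = 0.01), the third member of the coactivator family. ESRRA also fell with LPS in scramble control (-0.48 ± 0.12, adjusted p = 0.022), 1 of 8 partners called lower there by edgeR and 2 by DESeq2. No partner was called in the interaction by edgeR or DESeq2, where 2 had an unadjusted p under 0.05 by edgeR. In KD without LPS, PPARA was higher (0.94 ± 0.29, adjusted p = 0.033) and the deacetylase SIRT1 lower (-0.34 ± 0.11, adjusted p = 0.043). In KD with LPS, where PPARGC1B was lower, 1 of 8 partners fell, PPRC1 (-0.34 ± 0.09, adjusted p = 0.013), and none rose. Over the 12 libraries, the genes whose log2 CPM was most like that of PPARGC1B were PUS7 (Pearson r = 0.982), PPIL1 (0.974) and WDR3 (0.952), out of 11811 genes searched. This is a description, and the libraries share their conditions and depth.

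PRDM16 (chr1:3069168-3438621, plus strand), a transcription regulator that commits cells to the brown and beige fate, had 30, 37 and 34 counts in scramble control and 0, 0 and 8 in KD. With LPS it had 2, 13 and 11 counts in scramble control and 2, 0 and 8 in KD. Scramble control without LPS was above every library of the other groups. The log2 fold change of KD without LPS was -3.31 ± 1.25, and its adjusted p of 0.072 by edgeR missed the threshold. It passed with no filter on low counts (adjusted p = 0.035), with edgeR's own filter (0.038), with DESeq2 (0.016) and without the third KD library (0.0053), which leaves only KD libraries at 0. It did not pass with the other settings (adjusted p up to 0.11 by edgeR) or without any other single library (up to 0.17). In data simulated for this comparison, 18.1% of DESeq2 calls were false, against 7.66% of edgeR calls. With LPS in scramble control the log2 fold change was -1.44 ± 0.76 with an adjusted p of 0.26. Of 10 partners of PRDM16, 1 rose and 3 fell in KD without LPS, and 2 rose and 5 fell in KD with LPS. The shares of all genes called were 27.2% in KD without LPS and 26.9% in KD with LPS. EBF2, which marks brown and beige precursors, was lower in both (log2 fold change -0.80 ± 0.09, adjusted p = 3.8e-05, and -1.26 ± 0.12, adjusted p = 2.7e-06), as was PPARG, the master regulator of adipocyte differentiation (-0.87 ± 0.17, adjusted p = 0.0023, and -1.59 ± 0.12, adjusted p = 5e-07). For PPARG the study's own assays gave the opposite direction, as stated above. ZNF423 had the largest change of these partners in both KD comparisons and was lower in each, with adjusted p of 0.032 and 8e-04 by edgeR. It had 40 to 66 counts in scramble control and 3 to 18 in KD without LPS, and 31 to 59 and 0 to 2 with LPS, and no fold is given. ZNF516, a partner of PRDM16, was higher without LPS (1.32 ± 0.18, adjusted p = 0.00019) and with LPS (0.866 ± 0.215, adjusted p = 0.0084). Of the PRDM16 partners, 1 fell with LPS in scramble control, and 1 rose and 2 fell with LPS in KD.

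CKB, the cytosolic brain-type creatine kinase, lies on chr14:103519667-103522833 (minus strand, 8 exons). The 250 bases before its RefSeq start, GRCh38.p14, chr14:103522831-103523080 on the minus strand, are shown because the gene was the only member called in KD without LPS. They are 70.8% G or C with 27 CpG, against medians of 58.0% and 11 over the 35116 windows. The capitals mark 4 copies of the Sp1 box GGGCGG at -205, -152, -127 and -52 and the TATA box TATAAA at -69.
CKB: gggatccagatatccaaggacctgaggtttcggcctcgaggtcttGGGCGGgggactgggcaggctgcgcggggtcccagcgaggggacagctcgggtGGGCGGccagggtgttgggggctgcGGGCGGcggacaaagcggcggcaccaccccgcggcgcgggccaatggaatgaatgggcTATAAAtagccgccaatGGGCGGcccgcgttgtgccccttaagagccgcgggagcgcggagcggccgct
Both motifs together are a description of this window and not a site of binding.

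CKB had 2.96, 3.1 and 3.12 CPM in scramble control and 1.47, 1.02 and 1.14 CPM in KD. With LPS it had 2.61, 5.32 and 3.49 CPM in scramble control and 0.99, 2.52 and 2.04 CPM in KD. All KD libraries were below all scramble control libraries at each LPS setting. KD without LPS was 2.53-fold lower (log2 fold change -1.34 ± 0.30) with an adjusted p of 0.0052 by edgeR. With LPS the difference was -1.03 ± 0.39 with an adjusted p of 0.07. It passed with no filter on low counts (0.042), with all 12 libraries in 1 fit (0.038), with a replicate block (0.028) and without scramble control LPS library 1 (0.038). It did not pass with the other settings (adjusted p up to 0.096 by edgeR or DESeq2) or without any other single library (up to 0.27 by edgeR). The test of the difference between the 2 KD effects gave 0.31 ± 0.50 with an adjusted p of 0.92, so that the KD effects were not shown to differ. LPS itself did not move CKB past the threshold in scramble control (0.32 ± 0.27, adjusted p = 0.5) or in KD (0.62 ± 0.46, adjusted p = 0.48). The summed adipocyte markers fell in KD as CKB did, with 7 of 10 markers lower and none higher without LPS (median log2 fold change -1.13) and 8 of 10 lower with LPS (median -1.89). FABP4, a fatty acid carrier of adipocytes, was lower by -1.65 ± 0.27 (adjusted p = 0.00071) without LPS and ADIPOQ, which encodes adiponectin, by -1.39 ± 0.34 (adjusted p = 0.0094). With LPS in scramble control and in KD, edgeR called none of the adipocyte markers (1 and 4 at an unadjusted p under 0.05, 0 and 1 by DESeq2). Nervous tissue is rich in CKB, and the neural markers had 2 of 6 genes higher and none lower in KD without LPS. In KD with LPS 2 were higher and 1 lower. TUBB3, the most abundant neural marker, was at 103 ± 7.1 CPM (SD, n = 3) in scramble control and 103 ± 13.8 CPM in KD without LPS. The part of these markers in the CKB result was not tested. CRIP1 (Pearson r = 0.952), REEP6 (0.951) and CCDC92 (0.946) were the genes most like CKB over the 12 libraries.

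The other creatine genes did not pass the test. CKMT2 (chr5:81233320-81266398, plus strand), the mitochondrial creatine kinase of muscle and fat, had 2, 17 and 9 counts in scramble control, 4, 1 and 14 with LPS, 19, 7 and 9 in KD, and 22, 46 and 8 in KD with LPS. GATM (chr15:45361124-45402327, minus strand), the first enzyme of creatine synthesis, had 5, 8 and 10 counts in scramble control, 9, 2 and 5 with LPS, 0, 19 and 14 in KD and 17, 11 and 28 in KD with LPS. Both were highest on average in KD with LPS, where log2 fold changes against scramble control with LPS were 1.98 ± 1.03 (adjusted p = 0.19) and 1.99 ± 1.06 (adjusted p = 0.2), and only GATM did not overlap. GATM overlaps a long noncoding gene on the opposite strand, so its counts are uncertain in the same way as those of DIO2.

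SLC6A8 (chrX:153687926-153696588, plus strand), the creatine transporter, had 7.12, 7.51 and 6.68 CPM in scramble control and 4.4, 5.78 and 5.72 CPM with LPS. In KD it had 6.83, 5.81 and 6.86 CPM, and 3.9, 3.83 and 5.24 CPM with LPS. The libraries with LPS lay below those without in both arms, and those of KD overlapped those of scramble control. The log2 fold change of LPS was -0.41 ± 0.17 in scramble control (adjusted p = 0.15) and -0.59 ± 0.22 in KD (adjusted p = 0.11), so neither passed. Near-identical copies of SLC6A8 exist, and the pseudogene SLC6A10P had 0 to 17 counts, while PNCK, which overlaps SLC6A8 on the other strand, had 0 to 9. The genes most like SLC6A8 were PDE4A (Pearson r = 0.976), MOB3A (0.968) and IL17RA (0.949).

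Groups without overlap were found for 2 of the 9 genes in KD without LPS (CKB and PRDM16, both lower), 4 in KD with LPS (UCP2, PPARGC1B and CKB lower, GATM higher), 3 with LPS in scramble control (PPARGC1B, PRDM16 and SLC6A8) and 3 with LPS in KD (PPARGC1B, DIO2 and SLC6A8). The shares of all genes tested whose groups did not overlap were 42.5%, 40.6%, 32.1% and 27.3%. The comparisons of LPS with KD share libraries, so their member counts are not independent.

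Other genes of the same pathways were counted from lists. Of all genes, 27.2% were called in KD without LPS, 26.9% in KD with LPS, 14.3% with LPS in scramble control and 11.3% with LPS in KD. The list counts here and in the next paragraphs are to be read beside these shares. Among 21 brown and beige fat genes tested in KD without LPS, 5 rose and 3 fell. KCNK3, a potassium channel that limits thermogenic activity, was lower (log2 fold change -3.12 ± 0.32, adjusted p = 1.7e-05), as were PDK4, a brake on glucose oxidation (-1.72 ± 0.33, adjusted p = 0.0021), and ELOVL3, a fatty acid elongase of brown fat (-1.58 ± 0.15, adjusted p = 1.3e-05), while glycerol kinase GK was higher (2.14 ± 0.14, adjusted p = 5.7e-07). The remaining called genes were all higher. They were P2RX5 (1.55 ± 0.36, adjusted p = 0.0072), LETMD1 (0.88 ± 0.14, adjusted p = 0.00072), EVA1A (0.75 ± 0.09, adjusted p = 7.8e-05) and LHX8, which had few counts. In KD with LPS 4 rose and 3 fell. LPS in scramble control raised 2 and lowered 2 of 20, and in KD raised 1 and lowered 2 of 22. EVA1A was the only one of 22 with an interaction (1.15 ± 0.15, adjusted p = 0.00045). CIDEA, the classical brown fat marker, was at 0 in 11 libraries and had 5 counts in the other, and FGF21 and SLN, an uncoupler of the calcium pump, were at 0 or 1 count.

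ADRB3, the adrenergic receptor typical of fat, had few counts, with 0 to 13 per library. Of 17 adrenergic and cyclic nucleotide genes, 2 rose and 5 fell in KD without LPS, and 4 rose and 8 fell with LPS. PDE4B, a phosphodiesterase that breaks down cyclic AMP, was higher in both (3.10 ± 0.14, adjusted p = 7.2e-08, and 4.03 ± 0.16, adjusted p = 1.3e-09). NPR1, the natriuretic peptide receptor, was lower in both (-2.42 ± 0.26, adjusted p = 2.6e-05, and -2.93 ± 0.23, adjusted p = 4.2e-07). ADRA2A, the adrenergic receptor that inhibits lipolysis, had a negative interaction (-1.76 ± 0.36, adjusted p = 0.02) and PDE4B a positive one (0.94 ± 0.21, adjusted p = 0.03). LPS in scramble control raised 1 and lowered 1 of 17, and LPS in KD raised 2 and lowered 1 of 16. The mitochondrial carriers had 1 of 8 higher and 2 lower in KD without LPS and 2 higher and 2 lower with LPS. SLC25A4, a scarce ADP/ATP carrier, was lower in both (-1.77 ± 0.41, adjusted p = 0.0069, and -2.54 ± 0.53, adjusted p = 0.0027). Without LPS its means were 2.02 (scramble control) against 0.59 (KD) CPM. The ADP/ATP carriers SLC25A5 (177 against 165 CPM) and SLC25A6 (452 against 440 CPM) were far more abundant. Neither was called by edgeR without LPS (adjusted p = 0.34 and 0.78) or with LPS (adjusted p = 0.7 and 0.93). LPS called none of the mitochondrial carriers at an adjusted p under 0.05 by edgeR in either arm (2 in scramble control and 0 in KD at an unadjusted p under 0.05), and DESeq2 called none.

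The genes of calcium cycling, a further futile cycle of beige fat, had 3 of 8 higher and 1 lower in KD without LPS and 5 higher and none lower in KD with LPS. The scarce calcium pump ATP2A3 had 1 to 3 counts in scramble control and 46 to 146 in KD, and no fold is given. ATP2A2, the most abundant pump of this family, was at 677 ± 11.6 and 623 ± 18.2 CPM (SD, n = 3) and was not called there (adjusted p = 0.22 by edgeR). It was higher in KD with LPS (0.27 ± 0.07, adjusted p = 0.011) and lower with LPS in scramble control (-0.29 ± 0.07, adjusted p = 0.02). Its interaction was 0.39 ± 0.09 (adjusted p = 0.04). ITPR3, a calcium release channel, was higher in KD without LPS (0.82 ± 0.13, adjusted p = 0.00053). With LPS 2 of 8 fell in scramble control and 1 of 7 in KD. Of 9 other creatine genes, 2 rose and 1 fell in KD without LPS, 3 rose and 1 fell with LPS, and edgeR called none with LPS (4 in scramble control and 2 in KD at an unadjusted p under 0.05, and 1 in each by DESeq2). ALPL, a phosphatase proposed to hydrolyse phosphocreatine, was higher (1.60 ± 0.28, adjusted p = 0.0013, and 2.24 ± 0.30, adjusted p = 8.6e-05) and the taurine transporter SLC6A6 lower (-0.86 ± 0.09, adjusted p = 1.5e-05, and -1.12 ± 0.10, adjusted p = 2e-06). CKMT1A and CKMT1B, near-identical copies of the other mitochondrial creatine kinase, were uncertain alone and summed to 0.351 ± 0.221 CPM in scramble control, 0.608 ± 0.317 with LPS, 2.95 ± 0.74 in KD and 1.85 ± 0.871 in KD with LPS (SD, n = 3). Without LPS the sums did not overlap, since scramble control had 6 to 29 counts and KD had 100 to 139, the reverse of the order for CKB. With LPS the sums overlapped, at 11 to 39 counts in scramble control and 27 to 95 in KD. CKMT1A is among the genes counted as higher above, and without it 1 gene rose and 1 fell in KD without LPS and 2 rose and 1 fell with LPS.

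**Figure D4:**
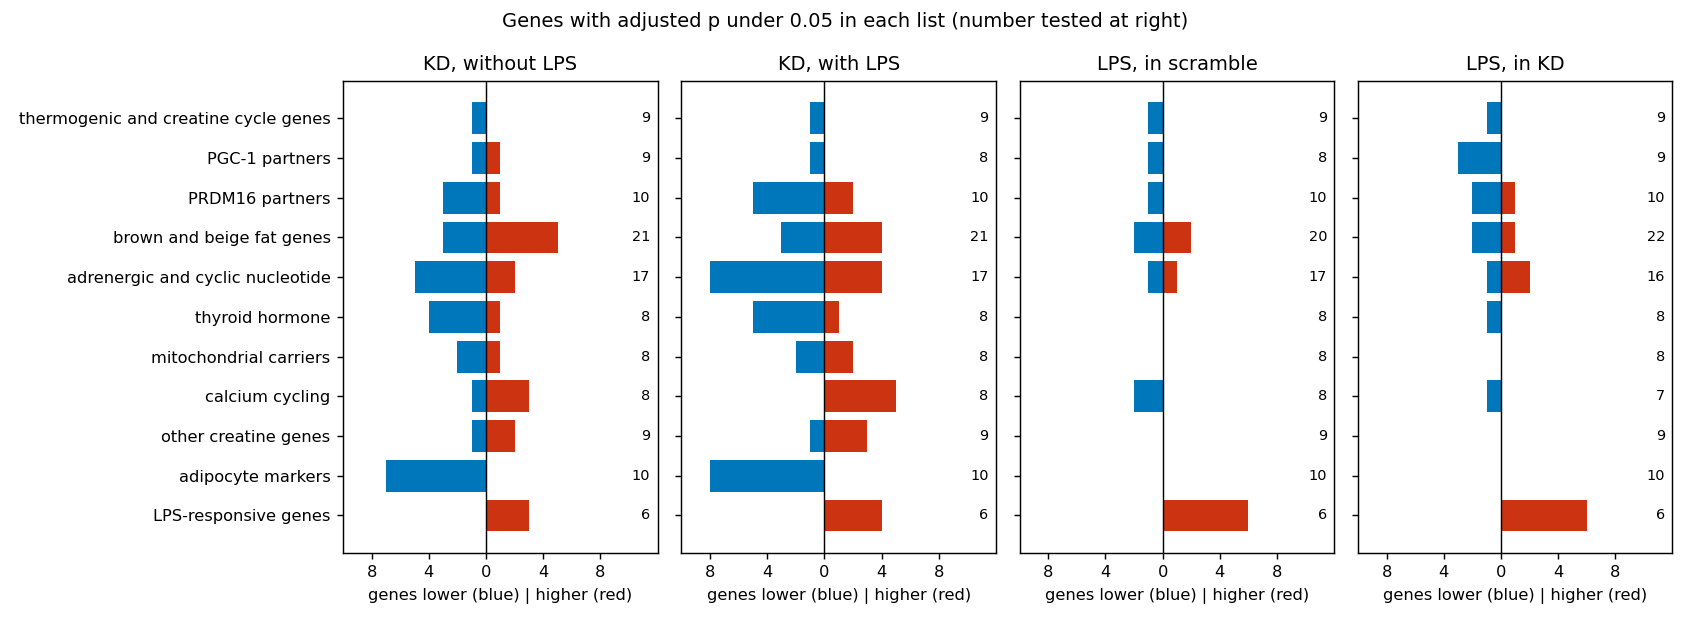
Number of genes lower (blue, left) and higher (red, right) with an adjusted p under 0.05 by edgeR in each list and comparison, with the number tested at the right. Adipocyte markers have 7 and 8 genes lower in the 2 KD comparisons and none in the LPS comparisons, and the thermogenic and creatine cycle genes have 1 gene lower in each.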

How the data were processed

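RNA-seq of 12 libraries was prepared with the Illumina stranded mRNA kit, and the authors deposited estimated counts from kallisto 0.44.0 on GRCh38, summed per gene name, not normalized. bcl2fastq 2.19 and DESeq2 1.32.0 are also in the submitters' processing notes, and the annotation release, summing program and strand setting are not given in the sources used here. The row with no gene name (0.235% to 0.306% of counts) was left out. In R 4.3.3, counts were rounded, genes with under 10 counts in the libraries fitted were dropped, and edgeR 4.0.16 (TMM, quasi-likelihood F test, Benjamini-Hochberg over all genes tested) compared 3 libraries with 3, with the interaction over 12. "Called", "rose" and "fell" mean an adjusted p under 0.05. The SE is the size of the log2 fold change divided by the square root of F. An exact permutation test of 3 against 3 cannot go below 0.1 and was not used. DESeq2 1.42.0, other scalings and filters, 1 joint fit, a replicate block and leaving out each library were alternatives. The edgeR and DESeq2 steps were tested on simulated data, where false calls exceeded the nominal rate, further with DESeq2 than with edgeR. Lengths and positions came from GENCODE release 44, and sequences from RefSeq (GRCh38.p14) or the GRCh38 genome. Named list genes were up to 4 per list and comparison that passed with a mean of at least 20 counts and the largest log2 fold change, and defining markers and near-absent genes with their level. For brown and beige fat genes in KD without LPS, all called genes were named. Likeness gives the 3 genes with the highest Pearson correlation of log2 CPM (0.5 CPM added) among those with a mean of at least 50 counts. The members and lists were chosen with earlier results of these data known. 1 list gene was not found in the table by symbol.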

Additional observations from a re-analysis of the deposited data

Results flagged for a closer look

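The PPARGC1B response to LPS was not the same in KD and in scramble control by the interaction test, with a value of -1.13 ± 0.25 (SE) on the log2 scale and an adjusted p of 0.031 by edgeR over 12 libraries. The gene was lower after LPS in 3 of 3 libraries of each arm against all untreated libraries of that arm. With single libraries left out the value ranged from -1.36 to -0.92 and the adjusted p from 0.0099 to 0.11. It passed with each of the 7 other settings tried, at adjusted p of 0.0024 to 0.034.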

How the results depend on the processing

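Of 661 alternative values of the 45 member results, 615 kept their direction and side of the threshold. The members passing in KD without LPS numbered 2 with no filter, edgeR's filter and DESeq2, those in KD with LPS 2 with no filter, all 12 libraries in 1 fit and the replicate block, and those with LPS in scramble control 0 with upper quartile scaling and the fit of 12. With a library left out they numbered 1 to 2, 1 to 2, 0 to 1 and, for the interaction, 0 to 1. Genes passing the interaction numbered 431 with no filter and 475 with DESeq2, and 92 to 243 with a library left out, and genes passing with LPS in scramble control 1187 to 2106. Without LPS, DIO2 turned to 0.04 with library size alone and GATM to -0.0083 with the replicate block, as PPARGC1A with LPS in KD did to -0.0085. Leave-one-out log2 ranges that crossed 0, none of them called, were -0.32 to 0.61 for UCP2, -0.54 to 0.10 for PPARGC1A, -0.0492 to 0.0869 for PPARGC1B, -0.26 to 0.19 for DIO2 and -0.0783 to 1.35 for CKMT2 in KD without LPS, -0.19 to 0.32 for UCP2, -1.37 to 0.46 for CKMT2 and -0.70 to 0.19 for GATM with LPS in scramble control, and -0.22 to 0.53 for PPARGC1A and -1.19 to 5.16 for PRDM16 with LPS in KD. The cause was not tested. DESeq2 gave no adjusted p for 9 values. Higher calls were 44.5% in KD without LPS and 61.4% with library size alone (median of all genes 0.129), 47.2% and 59.2% in KD with LPS, and 46.9% and 35.2% with LPS in KD. For the interaction they were 74% and, with upper quartile scaling, 62.9%.

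Outside LPS in scramble control, replicate numbers did not pair the libraries. Same-numbered deviations correlated at -0.126 to 0.273 over all comparisons of groups, and at 0.09 to 0.273 with LPS in scramble control. With LPS in scramble control each library correlated best with its own number, a hint from the data only. The replicate block left 1 member called with LPS in each arm and raised KD with LPS to 2 by adding CKB (log2 fold change -1.08, adjusted p = 0.028 by edgeR). Mean counts under 20 per library limit UCP1, PRDM16, CKMT2 and GATM.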

Other observations

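Chosen after its values were seen, LHX8, a homeobox gene used as a brown fat marker, had 0 to 2 counts per scramble control library without LPS and 0 with LPS, against 10 to 18 and 12 to 20 counts in linc-ADAIN KD. ZIC1, another brown fat marker, was at 27.2 ± 1.41 CPM (SD, n = 3) in scramble control, 29.7 ± 0.975 with LPS, 26.7 ± 3.36 in KD and 25.6 ± 3.33 in KD with LPS.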
